A study of Mus musculus with 4 samples.

Results

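Integrins are receptors of the cell surface that hold a cell to its matrix, and a set of adaptor proteins ties their inner tails to actin filaments. The genes described here are 42 integrins and actin-linking adhesion adaptors, taken by name from a list of such genes. All 42 were present among the 32285 genes of the count matrices. They comprise 8 integrin alpha subunits, 3 beta subunits and 31 adaptors, crosslinkers and linkers. Each was followed across the states of mouse muscle stem cells (MuSCs) and between control cells and cells in which alpha-catenin genes were targeted.

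An integrin is a heterodimer of an alpha and a beta subunit, and the pair sets which matrix protein is bound. Talins and kindlins switch integrins on from inside the cell, while vinculin, ILK, parvins, alpha-actinins and filamins carry the link onward to actin. Alpha-catenins make the corresponding link from cadherins to actin at cell-cell junctions, and vinculin, zyxin and Ena/VASP proteins work at both sites. MuSCs lie between the myofibre and a laminin-rich basal lamina, so they have both kinds of contact in the niche.

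The question posed was whether matrix adhesion genes and junction-actin linkers shift when alpha-catenins are deleted. tdTomato-positive MuSCs were sorted from hindlimb muscle of C57BL/6J mice aged 3 to 4 months, 14 days after tamoxifen given over 5 injection days, and profiled with 10x Genomics 3′ chemistry. The 2 control samples were Pax7CreERT2/+;Rosa26-tdTomato and the 2 α-cdKO samples were Ctnna1fl/fl;Ctnna3fl/fl;Pax7CreERT2/+;Rosa26-tdTomato. Every sample was a pool of 2 littermate mice, so p-values measure the spread between pools. Cre expressed from Pax7 and the reporter were shared by all 4 samples, and the floxed alleles were absent from control.

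The matrices held 46099310 to 74921651 unique molecular identifiers (UMIs, each counting 1 captured molecule) per sample. After removal of barcodes with fewer than 1000 UMIs, fewer than 400 genes or at least 15% mitochondrial UMIs, control kept 5484 and 5354 cells, while 9786 and 8166 remained for α-cdKO. Any pair of samples shared 9 to 26 barcodes among these cells. α-cdKO replicate 1 stood apart in that Xist reached 1052 CPM against at most 0.279 CPM in each of the other samples, and Ddx3y was at 104 CPM against 259 to 290 CPM. The pool of this sample probably held both sexes, but the labels do not give sex. Among the 42 genes Flna is X-linked, and the part of sex in the genotype differences was not tested. CPM here means the UMIs of a gene per 1000000 UMIs, summed over the cells of a class in a sample.

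Clusters were named only where fixed markers allowed it. They were quiescent-like (4401 cells), activated-like (11902), cycling-like (652) and differentiated-like (1339). A further cluster of 8521 cells passed no marker rule and is called chaperone-high after its leading genes, which included Dnaja4, Hsph1 and Hspa8. Quiescent-like cells were led by Fos, Jun and Hes1. With 362 cells carrying mature muscle markers, these made up the 27177 myogenic cells. Clusters with mature muscle, endothelial-like and immune-like markers were set aside. The cycling-like class had 30 cells in control replicate 1, in which the 8 immune markers summed to 17640 CPM, against 2.83 to 13.7 CPM in the other samples. The count of members in cycling-like cells is therefore given with and without that library. The 10 mature muscle markers were highest in control replicate 2, at 701 CPM in its myogenic cells against 228 to 461 CPM in the others.

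Promoter sequence is shown because several members shared their highest state. Of the 42 genes, 35 had promoter entries in RefSeq (GRCm38.p6), giving 45 start sites, and the 250 bases upstream of each were searched on both strands. The CArG box, bound by serum response factor in many genes of the actin cytoskeleton, was found in 3 of the 45 windows (6.67%) and in 1.47% of all 32851 promoters. The letters CATTCC, the core of the M-CAT element bound by TEAD factors, were found in 10 of 45 windows (22.2%) and in 12.6% of all promoters. TGANTCA, the AP-1 element, was found in 3 of 45 (6.67%) against 6.75% of all. The CArG windows belonged to Vcl, Fermt2 and Lima1, of which Vcl and Fermt2 made up 2 of the 9 windows (22.2%) of members higher in activated-like cells. CATTCC was likewise found in 2 of those 9 (22.2%), those of Flnc and Vcl, and no AP-1 element was found in them. The 9 windows came from 7 of the 8 members higher in activated-like cells, and Lima1 was not among these members. The 3 CArG boxes are shown in capitals with 10 bases on either side, 5′ to 3′ on the gene's strand.
Vcl, chr14:20929161-20929190, plus strand: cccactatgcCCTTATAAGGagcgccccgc
Fermt2, chr14:45530250-45530279, minus strand: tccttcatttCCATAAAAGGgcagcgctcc
Lima1, chr15:99820177-99820206, minus strand: ctcactttgtCCTTATAAGGctatcctgtt

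The CArG boxes began 227 bases upstream of the start in Vcl, 204 in Fermt2 and 47 in Lima1. The Fermt2 and Lima1 sites lie within the span of the RefSeq gene, which extends further upstream than the start used. The Vcl window also held CATTCC on the opposite strand, 143 to 138 bases upstream of the start. It is printed whole because Vcl and Fermt2 were among the members that were higher in activated-like cells. Whether any of these sites is bound in MuSCs, or has a part in the state differences, was not tested. Capitals mark the CArG box and then the reverse complement of CATTCC.
Vcl, chr14:20929148-20929397, plus strand: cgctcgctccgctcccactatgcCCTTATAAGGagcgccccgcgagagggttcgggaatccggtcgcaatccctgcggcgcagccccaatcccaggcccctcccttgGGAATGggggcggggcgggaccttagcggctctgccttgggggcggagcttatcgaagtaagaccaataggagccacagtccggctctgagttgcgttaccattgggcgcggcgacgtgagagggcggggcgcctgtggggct

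In myogenic cells the members ranged from Itga9, at 0.0211 CPM, to Flnc, at 400 CPM. Averaged over the 4 samples, 6 members reached at least 100 CPM, 21 lay from 10 to under 100 CPM, 8 from 1 to under 10 CPM and 7 under 1 CPM. Molecules were counted at the 3′ end, so CPM values were not divided by transcript length, and differences in capture between genes were not corrected.

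Among integrins, Itgb1, the beta subunit shared by the laminin, collagen and fibronectin receptors, dominated. It stood at 192 and 184 CPM in control and 189 and 177 CPM in α-cdKO. Itgav, the alpha subunit of the vitronectin receptors, followed with a mean of 53.0 ± 5.45 CPM (SD, n = 4). Itga5, its counterpart in the main fibronectin receptor, stood at 17.9 to 21.3 CPM in the 4 samples, and Itgb5, a partner of Itgav, at 9.10 ± 0.931 CPM. These 4 genes did not overlap one another in any sample.

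The other 7 integrin genes were low. Itga1, a collagen receptor subunit, averaged 2.41 CPM and Itga6, a laminin receptor subunit, 1.59 CPM. Itga3, another laminin receptor subunit, averaged 0.738 CPM and the collagen receptor subunit Itga2 0.248 CPM. Itga4 rested on 9 UMIs in all, Itgb3 on 11 and Itga9 on 5. Itga7, the laminin receptor subunit of muscle, is not in the list and averaged 38.9 ± 6.08 CPM. In every sample it lay between Itgav and Itga5.

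In the talin, vinculin and kindlin group, Fermt2 (kindlin-2, an integrin activator) averaged 261 ± 30.5 CPM. Tln2, a talin, averaged 127 ± 19.2 CPM and exceeded its paralogue Tln1, at 56.4 ± 8.39 CPM, in every sample. Vcl, which reinforces talin and alpha-catenin under load, averaged 66.9 ± 6.77 CPM. Among partners of the integrin-linked kinase complex, Lims1 (PINCH1) averaged 75.0 CPM, Ilk 65.1 CPM and Parva (alpha-parvin) 35.2 CPM, while Parvb (beta-parvin) was at 0.505 CPM. The sarcolemmal and Z-disc filamin Flnc was the highest member, at 400 ± 62.1 CPM. The other crosslinkers were Actn4 (170 CPM), Flna (52.0 CPM) and Actn1 (42.5 CPM).

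Adaptors of the zyxin family and LIM group ranged from under 1 CPM to 101 CPM. Lpp and Zyx, a pair of zyxin-family proteins found at focal adhesions and junctions, averaged 101 and 92.6 CPM, and their relative Trip6 32.9 CPM. The PDZ-LIM proteins Pdlim7 and Pdlim5 averaged 59.5 and 51.1 CPM. Lima1, an actin bundler that binds alpha-catenin, averaged 22.6 CPM, Tes 3.28 CPM and Fblim1 (migfilin) 0.656 CPM. Of the actin elongators, Enah stood at 39.7 CPM, Vasp at 12.2 CPM and Evl at 10.3 CPM. Pxn (paxillin) averaged 28.9 CPM and Ptk2 (focal adhesion kinase) 14.3 CPM, above Bcar1 (p130Cas) at 7.97 CPM and Src at 1.90 CPM. Afdn (afadin, which links nectins to actin) averaged 21.0 CPM and Nexn (nexilin, an actin-binding Z-disc protein) 28.7 CPM. The tensins Tns1 and Tns3 were at 8.80 and 2.01 CPM.

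**Figure D1:**
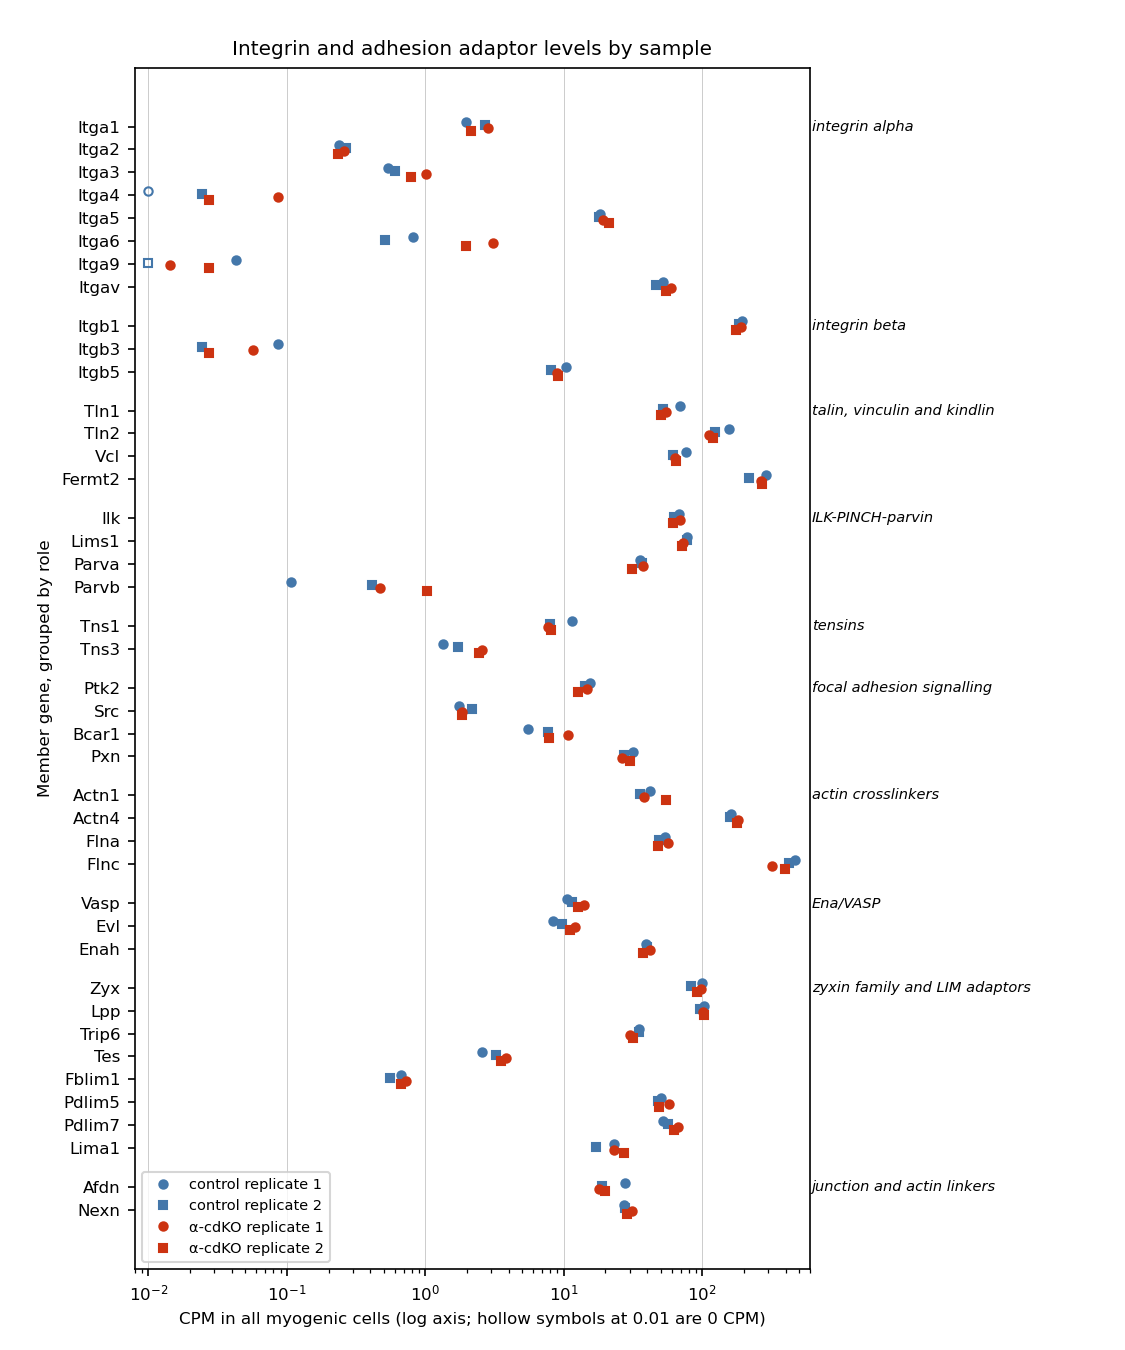
CPM of the 42 genes in all myogenic cells, on a log axis, with 1 symbol per sample (blue for control, red for α-cdKO) and genes grouped by role. Flnc lies highest, at 317 to 464 CPM, and Itga6 is a low gene whose α-cdKO symbols lie to the right of control.

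Cell state was compared by description alone, because the states came from clustering the same cells. The paper reports that stress and activation of MuSCs arise during their isolation and sorting. How far isolation shaped the states and the differences between them was not tested. The 42 genes were left out of the genes used for clustering. A gene was counted as higher or lower where its CPM, after adding 5 CPM to each side, was at least 1.5-fold that of quiescent-like cells, or at most 1/1.5 of it, in each of the 4 samples. Only genes with a mean of at least 10 CPM in either state were counted, which left 28 or 29 of the 42.

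In activated-like cells, 8 of 28 members (28.6%) were higher, against 18.8% of all 6763 genes counted, and 1 of 28 was lower, against 18.4%. The 8 were the integrin subunits Itga5 and Itgav, the linkers Vcl, Fermt2 and Pxn, the filamin Flnc and the PDZ-LIM proteins Pdlim5 and Pdlim7. The same 8 genes were higher in chaperone-high cells (13.6% of all genes), where no member was lower (8.92% of all genes). The median log2 difference of members was 0.17 in activated-like cells and 0.14 in chaperone-high cells, beside -0.01 and -0.05 over all genes counted.

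Flnc had the largest mean difference of the members in activated-like cells. Its level was 124 and 82.6 CPM in the quiescent-like cells of control and 96.5 and 108 CPM in those of α-cdKO. In activated-like cells it was 562 and 567 CPM in control and 384 and 493 CPM in α-cdKO. The states did not overlap, and the mean log2 difference was 2.23 ± 0.33 (SD, n = 4). The gene lies at chr6:29433153-29461889 (RefSeq, GRCm38.p6).

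Itgav was at 17.1 and 16.5 CPM in the quiescent-like cells of control and 22.8 and 18.4 CPM in those of α-cdKO. In activated-like cells it was at 64.1 and 62.7 CPM in control and 79.5 and 70.1 CPM in α-cdKO. The states did not overlap, with a log2 difference of 1.65 ± 0.03 (SD, n = 4), the most even of the 8 between samples. Itga5 stood at 2.54 to 7.06 CPM in quiescent-like and 22.1 to 26.8 CPM in activated-like cells, a log2 difference of 1.53 ± 0.25 with 5 CPM added. Itgb1, the partner of Itga5, differed by 0.21 ± 0.06 on the log2 scale and stayed under the 1.5-fold limit in every sample, as did Itgb5, at -0.19 ± 0.11. Thus the 2 alpha subunits were counted as higher and the 2 beta subunits were not.

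Among the linkers, Fermt2 was at 110 to 143 CPM in quiescent-like and 264 to 337 CPM in activated-like cells, with a log2 difference of 1.30 ± 0.13. Vcl was at 26.2 to 32.6 CPM and 76.7 to 95.9 CPM in the respective states, a log2 difference of 1.35 ± 0.16. Neither gene overlapped between the states. Pxn differed by 1.07 ± 0.18, Pdlim5 (a scaffold of alpha-actinin and kinases) by 1.44 ± 0.10 and Pdlim7 by 1.58 ± 0.12 on the same scale. The talins were not counted as higher, as Tln1 differed by 0.04 ± 0.12 and Tln2 by -0.05 ± 0.17. Ilk (0.07 ± 0.13), Lims1 (0.29 ± 0.11) and Actn4 (-0.08 ± 0.05) also stayed under the limit.

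Nexn was the member counted as lower in activated-like cells. It was at 35.3 and 46.7 CPM in quiescent-like control cells and 48.5 and 42.5 CPM in quiescent-like α-cdKO cells, and at 18.8, 12.9, 14.1 and 13.5 CPM in activated-like cells. The states did not overlap, and the log2 difference was -1.28 ± 0.36. Itga7, which is not a member, differed by -0.84 ± 0.07, opposite in sign to Itgav and Itga5.

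Differentiated-like cells, marked by Myog, Mymk and Cdkn1c, had 11 of 29 members higher (37.9%), against 21.1% of 7032 genes, and none lower, against 5.09%. The median difference of all genes in this state was itself 0.31, beside 0.52 for members. The 11 were Vcl, Pxn, Fermt2, Actn1, Flnc, Vasp, Enah, Bcar1, Pdlim5, Pdlim7 and Nexn. Pdlim7 went furthest, from 15.4 to 19.1 CPM in quiescent-like cells to 136 and 184 CPM in control and 186 and 242 CPM in α-cdKO, a log2 difference of 3.14 ± 0.35. Bcar1, a scaffold phosphorylated by focal adhesion kinase and Src, differed by 1.70 ± 0.23. Of the actin elongators, Enah differed by 1.26 ± 0.28 and Vasp by 1.20 ± 0.16, whereas Evl was at 0.20 ± 0.20. Actn1, an alpha-actinin, was at 26.4 to 49.7 CPM in quiescent-like and 77.9 to 112 CPM in differentiated-like cells, a difference of 1.29 ± 0.33, while its paralogue Actn4 was at -0.11 ± 0.21. The linkers Vcl (1.18 ± 0.16), Pxn (1.24 ± 0.23) and Fermt2 (1.10 ± 0.12) were higher than in quiescent-like cells here as in activated-like cells. So were Flnc (1.89 ± 0.27) and Pdlim5 (1.59 ± 0.07). Nexn, lower in activated-like cells, was higher here, at 82.7 to 88.2 CPM and a difference of 0.90 ± 0.19. Itgav (0.57 ± 0.21) and Itga5 (0.60 ± 0.25) were not counted as higher.

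Several of these genes also act in the sarcomere, and mature muscle markers moved with the state. The 10 mature muscle markers, none of them at 0, summed to 841 to 2140 CPM in differentiated-like and 207 to 646 CPM in quiescent-like cells. In the mature muscle cluster that was set aside, Pdlim7 stood at 320 to 601 CPM, Pdlim5 at 162 to 392 CPM and Nexn at 111 to 253 CPM. In the same cluster Bcar1 (1.35 to 4.14 CPM), Vasp (3.24 to 9.45 CPM) and Actn1 (9.18 to 24.3 CPM) were lower than in differentiated-like cells in every sample. The part of mature muscle RNA in the differences of Pdlim7, Pdlim5 and Nexn was not tested. The number of differentiated-like cells fell from 1339 to 478 when the cells with the highest doublet scores were removed. Of the 11 members 10 then kept their call, Fermt2 being the exception.

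In cycling-like cells, 9 of 29 members were higher (31.0%), against 25.5% of 7667 genes, and none was lower, against 3.03%. Here too the median over all genes was above 0, at 0.46, beside 0.61 for members. Without control replicate 1 the count was 11, including the same 9, against 30.9% of genes. The 9 were Itga5, Itgb1, Vcl, Zyx, Ilk, Lims1, Flna, Bcar1 and Pdlim7. Ilk, the pseudokinase at the centre of its complex, was at 53.8 to 62.9 CPM in quiescent-like cells and 114 and 136 CPM in cycling-like control and 138 and 133 CPM in cycling-like α-cdKO cells. Its partner Lims1 differed by 0.90 ± 0.12 and Zyx by 1.18 ± 0.23. Itgb1 reached 251 to 284 CPM against 158 to 173 CPM, a log2 difference of 0.67 ± 0.07, and the states did not overlap. Bcar1 was at 10.3 to 19.9 CPM and Flna at 94.0 to 117 CPM in cycling-like cells, differences of 1.00 ± 0.11 and 1.01 ± 0.16. For Vcl, Itga5 and Pdlim7 the differences were 0.88 ± 0.03, 1.26 ± 0.49 and 1.68 ± 0.16. Flnc, by contrast, differed by 0.56 ± 0.13 here and was under the limit in at least 1 sample.

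Members thus had their highest level in different states. The same state ranked highest in all 4 samples for 23 genes. It was the differentiated-like state for 9, among them Itga6, Vasp, Enah and Lima1, and the activated-like state for 4 (Itgav, Vcl, Fermt2 and Flnc). For 10 it was the cycling-like state, among them Itgb1, Tln1, Zyx, Ptk2, Ilk, Parva and Lims1. No member had its highest level in quiescent-like cells in all 4 samples. The ranking was not made over all genes, whose median difference was 0.46 in cycling-like and 0.31 in differentiated-like cells. For control replicate 1 the cycling-like rank rests on 30 cells. The low genes Itga6 and Fblim1 are among the 23.

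**Figure D2:**
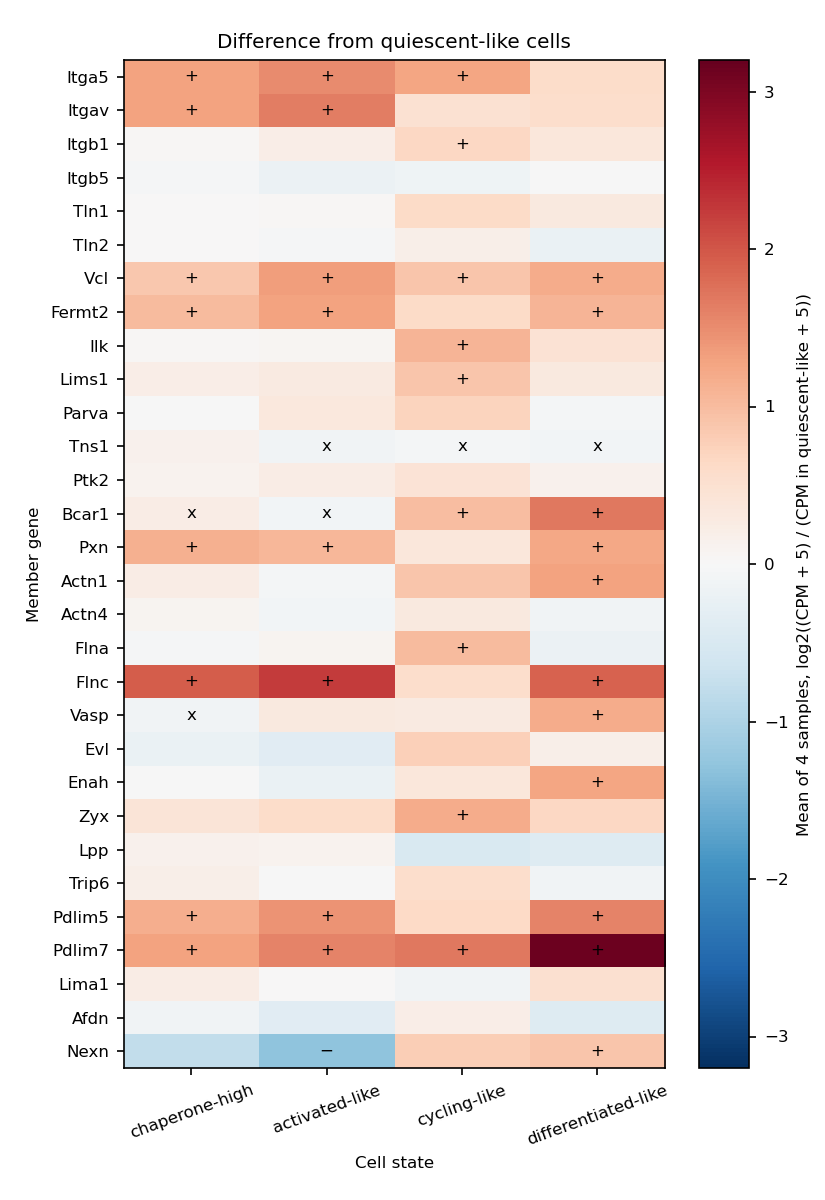
Mean over 4 samples of the log2 difference from quiescent-like cells for the 30 genes with at least 10 CPM in some comparison, by cell state. Plus and minus signs mark genes at least 1.5-fold higher or lower in every sample, and x marks a comparison in which both states averaged under 10 CPM. Pdlim7 in differentiated-like cells is the darkest, at 3.14.

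**Figure D3:**
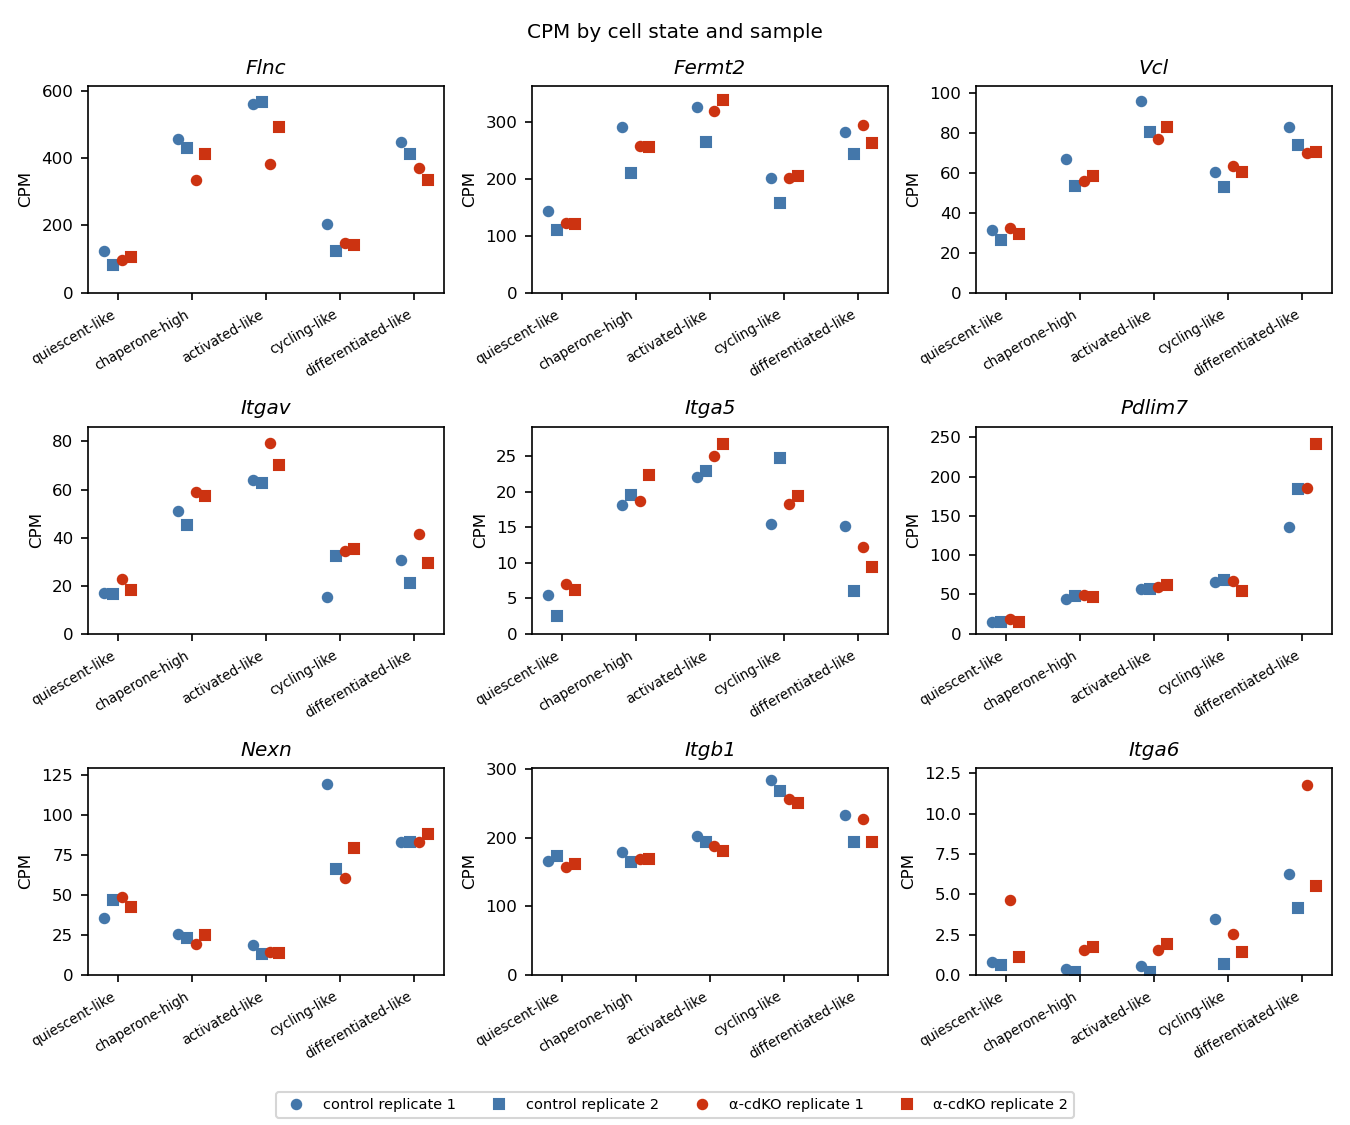
CPM of 9 genes in 5 cell states, each panel with a linear axis from 0 and 1 symbol per sample. Flnc, Fermt2, Vcl and Itgav are highest in activated-like cells in all 4 samples, Nexn is lowest there, and Itgb1 lies between 158 and 284 CPM throughout.

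Next, control and α-cdKO were compared within cell classes. Class sums of UMIs in each sample were compared over all genes by the quasi-likelihood test of edgeR with Benjamini-Hochberg adjustment. In all myogenic cells, 39 of 42 members passed the filter on low counts and none had an adjusted p under 0.05, while 25 of 14633 genes did (0.171%). Unadjusted p was under 0.05 for 2 members, Itga6 and Tns3, or 5.13% of those tested, against 7.03% of all genes. DESeq2 on the same sums called 1 member, Itga6. The median log2 fold change of members was 0.05, beside -0.01 over all genes tested. In 2 against 2 samples an exact permutation test cannot go below a p of 0.3333, so the tests rest on a spread estimated over genes.

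The α-cdKO values lay above both control values for 15 of the 39 members (38.5%), against 18.6% of all genes, and below both for 4 (10.3%), against 19.6%. The 4 below were Flnc, Tln2, Trip6 and Lims1. Among the 15 above, those of at least 10 CPM with the largest differences were Evl, Lima1, Vasp, Pdlim7 and Itgav. Evl was at 8.35 and 9.75 CPM in control and 12.1 and 11.1 CPM in α-cdKO, and Vasp at 10.5 and 11.4 CPM against 13.98 and 12.76 CPM. Lima1 was at 23.0 and 17.1 CPM against 23.1 and 27.0 CPM, and Pdlim7 at 52.0 and 56.6 CPM against 66.7 and 62.6 CPM. The log2 fold changes of these 5 ran from 0.21 for Itgav to 0.35 for Evl, with edgeR adjusted p of 0.714 to 0.753. Flnc was at 464 and 422 CPM in control and 317 and 395 CPM in α-cdKO, a log2 fold change of -0.32 ± 0.16 (SE, n = 2 per genotype) and an adjusted p of 0.721 by edgeR. It ran over 15 alternatives from -0.53 without α-cdKO replicate 2 to -0.14 without α-cdKO replicate 1. Tln2 was at 155 and 124 CPM in control and 111 and 119 CPM in α-cdKO, a log2 fold change of -0.28 ± 0.15 (SE).

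The makeup of the myogenic cells differed between samples, and in sums over them a change in makeup and a change in each cell cannot be told apart. Vasp, Pdlim7, Lima1 and Itga6 were highest in differentiated-like cells. These cells made up 2.92% and 3.66% of myogenic cells in control and 7.13% and 4.39% in α-cdKO. Cycling-like cells, in which Evl was highest, made up 0.568% and 1.88% in control and 4.40% and 1.54% in α-cdKO. Some marker sums also separated the genotypes. In myogenic cells the 6 mural markers, none at 0, summed to 412 and 459 CPM in control and 669 and 590 CPM in α-cdKO. In activated-like cells they summed to 319 and 289 CPM in control and 409 and 393 CPM in α-cdKO. The mural sum was higher in differentiated-like cells, at 1888 to 2188 CPM, than in activated-like cells in every sample. In cycling-like cells it was 838 to 1181 CPM. The 8 immune markers summed to 224 and 4.45 CPM in control and 2.12 and 1.89 CPM in α-cdKO. In control replicate 1 they summed to 17640 CPM in the 30 cycling-like cells and to 3.13 to 4.85 CPM in the other states. The 10 quiescent markers summed to 1670 and 1581 CPM in control and 1107 and 1556 CPM in α-cdKO. The part of these sums in the members' differences was not tested.

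Among members the largest fold change in myogenic cells was that of Itga6, the subunit that pairs with beta-1 in a laminin receptor. Itga6 had 38 and 21 UMIs in the myogenic cells of control, or 0.815 and 0.511 CPM, and 214 and 144 UMIs in those of α-cdKO, or 3.06 and 1.97 CPM. The genotypes did not overlap. Its log2 fold change was 1.90 with a 95% interval of 1.07 to 2.72, and the edgeR adjusted p was 0.234. Over 15 alternatives the fold change ran from 0.74 to 2.30 and the adjusted p from 0.00583 to 0.774. It passed the threshold with DESeq2 (0.00583) and with control and α-cdKO samples paired by crossed replicate numbers (0.0199). Itga6 lies at chr2:71786886-71858427 (RefSeq, GRCm38.p6) and overlaps the counted genes Gm13662 and Gm13663. It was chosen after its values were seen.

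Itga6 was also higher in both α-cdKO samples within some single states. In activated-like cells it was at 0.554 and 0.176 CPM in control (12 and 3 UMIs) and 1.55 and 1.94 CPM in α-cdKO (43 and 54 UMIs), a log2 fold change of 2.21 with a 95% interval of 1.10 to 3.32. In chaperone-high cells it was at 0.362 and 0.149 CPM in control and 1.54 and 1.73 CPM in α-cdKO, a log2 fold change of 2.63 with a 95% interval of 1.54 to 3.73. The edgeR adjusted p was 0.307 and 0.141, so neither passed the threshold. In activated-like cells the log2 fold change was 3.29 without control replicate 1 and 1.69 without control replicate 2, the bounds over 15 alternatives. In chaperone-high cells it ran from 1.87, with doublets removed or without integration, to 3.38 without control replicate 1 over 14 alternatives. Quiescent-like cells had 4 UMIs in each control sample and 34 and 10 in α-cdKO, too few to pass the filter. In differentiated-like cells, where Itga6 was highest, the values overlapped, at 6.26 and 4.15 CPM in control and 11.8 and 5.49 CPM in α-cdKO. Cycling-like values overlapped too, at 3.445 and 0.688 CPM in control (2 and 1 UMIs) and 2.54 and 1.42 CPM in α-cdKO.

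Itga6 was far higher in cells that were set aside, at 115 to 238 CPM in endothelial-like and 13.0 to 111 CPM in immune-like cells. The 8 endothelial markers, none at 0, summed to 6.14 and 4.77 CPM in the myogenic cells of control and 6.60 and 4.54 CPM in those of α-cdKO. In activated-like cells they summed to 1.80 and 2.29 CPM in control and 2.91 and 1.79 CPM in α-cdKO. The 7 glial markers summed to 16.5 and 23.3 CPM against 17.7 and 15.99 CPM in myogenic cells. These endothelial and glial sums overlapped between the genotypes. With all kept cells counted together, endothelial-like cells included, the log2 fold change of Itga6 was 0.74 and its adjusted p 0.774.

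In quiescent-like cells 34 members were tested and none was called, against 10 of 11522 genes (0.0868%), and DESeq2 called none. Unadjusted p was under 0.05 for 3 members (8.82%), against 8.05% of all genes. They were Lima1, Bcar1 and Itga5, each with higher values in both α-cdKO samples. Bcar1 was at 3.49 and 4.45 CPM in control and 7.19 and 5.98 CPM in α-cdKO, a log2 fold change of 0.75, and Itga5 at 5.43 and 2.54 CPM against 7.06 and 6.10 CPM, a log2 fold change of 0.79. In the same cells the 10 differentiated markers summed to 103 and 127 CPM in control and 179 and 131 CPM in α-cdKO, and the 6 mural markers to 406 and 442 CPM against 643 and 558 CPM. The 10 quiescent markers summed to 3739 and 3803 CPM against 2641 and 3495 CPM. The part of these sums in the differences of Lima1, Bcar1 and Itga5 was not tested. α-cdKO lay above control for 8 of 34 members (23.5%), against 16.9% of all genes, and below for 4 (11.8%), against 23.8%. Lima1 was at 20.2 and 13.7 CPM in control and 23.1 and 23.7 CPM in α-cdKO, a log2 fold change of 0.52 ± 0.19 (SE) with an edgeR adjusted p of 0.546. Itgav, Pxn, Actn4 and Flna were the other members above control among those of at least 10 CPM, with log2 fold changes of 0.18 to 0.33. Zyx, Itgb1 and Ptk2 were the members below control at that level, at -0.13, -0.05 and -0.02.

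In activated-like cells 37 members were tested and none was called, against 19 of 12197 genes (0.156%), and DESeq2 again called none. Unadjusted p was under 0.05 for Itga6, Tns3 and Flnc, or 8.11% of members, against 6.76% of all genes. α-cdKO lay above control for 10 of 37 members (27%), against 15.3% of all genes, and below for 11 (29.7%), against 21.6%. The integrin subunits Itgav (log2 fold change 0.27) and Itga5 (0.24) were among those above, with Vasp, Actn4 and Pdlim7 at 0.12 to 0.20. Tln2 (-0.31), Tln1 (-0.27), Trip6 (-0.23) and Ptk2 (-0.14) were among those below. Both talins were below both control values, with edgeR adjusted p of 0.786 for Tln2 and 0.816 for Tln1. Tln2 was at 154 and 125 CPM in control and 102 and 118 CPM in α-cdKO, and Tln1 at 68.1 and 53.3 CPM against 51.9 and 46.5 CPM. Control replicate 1 was the highest sample for both, and in quiescent-like cells both talins overlapped between the genotypes.

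Among members of at least 10 CPM without overlap in activated-like cells Flnc differed most, by -0.33 with a 95% interval of -0.66 to -0.0023 and an edgeR adjusted p of 0.731. Over 15 alternatives it ran from -0.52 without α-cdKO replicate 2 to -0.17 without α-cdKO replicate 1, the library with the lowest value. Tns3, a tensin, was at 0.877 and 0.765 CPM in control and 1.73 and 1.72 CPM in α-cdKO, a log2 fold change of 1.09 with a 95% interval of 0.34 to 1.84. Its edgeR adjusted p was 0.572.

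The remaining classes gave no call either. In chaperone-high cells 37 members were tested, against 27 of 12246 genes called (0.22%), and 3 (8.11%) had an unadjusted p under 0.05, against 8.37% of all genes. These were Itga6, Vasp (log2 fold change 0.44) and Itgav (0.30), and DESeq2 called none. In differentiated-like cells 32 members were tested, none with an unadjusted p under 0.05 (3.19% of all genes) and none called by DESeq2, against 1 of 9843 genes called (0.0102%). Among members of at least 10 CPM without overlap Pdlim7 had the largest difference there, at 136 and 184 CPM in control and 186 and 242 CPM in α-cdKO, a log2 fold change of 0.45 with a 95% interval of -0.06 to 0.97. Vasp (0.34) and Pdlim5 (0.25) were also above both control values there, and Flnc (-0.25), Pxn (-0.20), Lims1 (-0.15), Vcl (-0.12) and Trip6 (-0.08) below both. In chaperone-high cells Lima1 (0.28) and Actn4 (0.20) were above, and Trip6 (-0.23), Flnc (-0.22), Enah (-0.19) and Lims1 (-0.16) below.

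**Figure D4:**
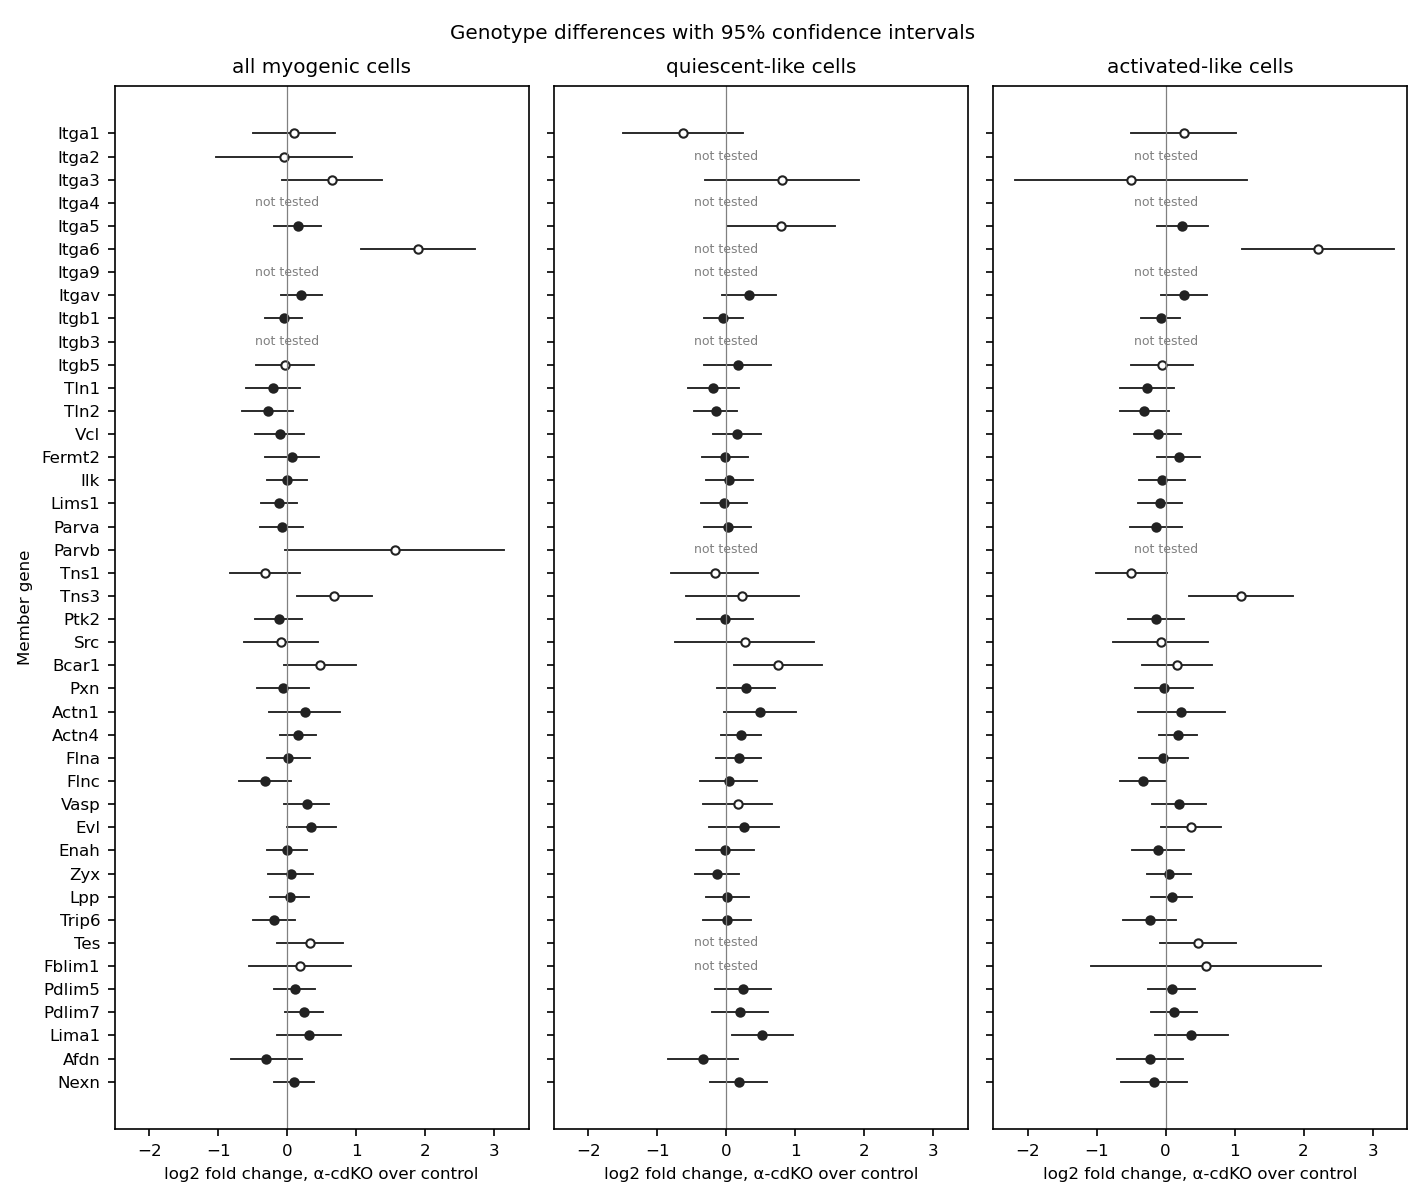
Log2 fold change of α-cdKO over control with 95% confidence intervals (edgeR) for the 42 genes in 3 cell classes. Hollow symbols mark genes averaging under 10 CPM in that class, and genes removed by the filter on low counts are written as not tested. Intervals that exclude 0 belong to Itga6 and Tns3 in all myogenic cells, to Lima1, Bcar1 and Itga5 in quiescent-like cells and to Itga6, Tns3 and Flnc in activated-like cells.

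The 95% interval of Itgb1 in all myogenic cells ran from -0.32 to 0.22 on the log2 scale, that of Ilk from -0.29 to 0.29 and that of Vcl from -0.46 to 0.24. For Actn4 it ran from -0.11 to 0.42 and for Fermt2 from -0.32 to 0.47. Of the junction-actin linkers that share sites with alpha-catenins, Afdn differed by -0.30 (-0.82 to 0.21), Zyx by 0.05 (-0.28 to 0.38) and Lima1 by 0.31 (-0.16 to 0.78). For low genes the intervals were wide, as in Parvb, from -0.04 to 3.15.

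Whether the genotype difference itself depended on state was tested between quiescent-like and activated-like cells, with sample as a term in edgeR. Of 37 members tested none passed, against 1 of 13131 genes (0.00762%), and DESeq2 called none. Flnc was the 1 member of 37 with an unadjusted p under 0.05, against 4.97% of all genes. Its genotype difference was 0.03 in quiescent-like and -0.33 in activated-like cells, and the tested difference between them was -0.40 ± 0.18 (SE) with an adjusted p of 0.986.

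Other genes of matrix and junction adhesion were read from a wider list of 80 genes outside the 42. In all myogenic cells 71 were tested by edgeR, 6 (8.45%) had an unadjusted p under 0.05, against 7.03% of all genes, and none was called. None of the 80 was called in the other 4 classes. Itga7 was at 31.8 and 35.9 CPM in control and 44.1 and 43.7 CPM in α-cdKO, a log2 fold change of 0.37 ± 0.12 (SE) with an adjusted p of 0.655. In activated-like cells 10 of 48 listed genes of at least 10 CPM (20.8%) were higher than in quiescent-like cells, against 18.8% of all genes. Another 9 (18.8%) were lower, against 18.4% of all genes, so both shares were near those of all genes.

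The targeted genes do not check the labels in these data. Ctnna1 was at 91.0 and 74.7 CPM in the myogenic cells of control and 79.4 and 75.6 CPM in those of α-cdKO, and the genotypes overlapped. In activated-like cells it was at 102.1 and 89.85 CPM in control and 81.56 and 79.13 CPM in α-cdKO, without overlap. In each other state its values overlapped between the genotypes. Reads came from the 3′ end of transcripts, and counts per gene cannot show the loss of floxed exons. Ctnna3 was under 0.1 CPM in every sample. The paper reports that most MuSCs remaining in α-cdKO mice after tamoxifen still stained for αE- or αT-catenin. How many of the sorted α-cdKO cells had lost both proteins was not measured here.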

How the data were processed

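The deposited matrices held raw UMI counts per gene and barcode, which the authors made with Cell Ranger 7.1.0 on GRCm38. Here, barcodes were filtered as stated, 2000 variable genes without the 42 members gave 30 components, samples were integrated with Harmony, and cells were clustered (Louvain, resolution 0.2; Seurat 5.3.0). A cluster took a name where at least 3 fixed markers were 1.5-fold raised. The rule that kept the chaperone-high cluster as myogenic was set after its values were seen. Scrublet (scanpy 1.11.5) marked at most 5 cells in a library, too few to have worked, so doublets were kept and cells with the highest scores removed as an alternative.

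Class sums of each sample were fitted with edgeR 4.0.16 (filterByExpr, TMM) over all genes. DESeq2 1.42.0 was an alternative. Members and lists were chosen with earlier results of these data known. Members were named by level, by state call and, per genotype comparison, by the 5 largest rises and falls without overlap at 10 CPM or more. Those named for an unadjusted p were chosen after their values were seen. Scripts were tested on simulated data.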

Additional observations from a re-analysis of the deposited data

How the results depend on the processing

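Of 72 alternative fits of the genotype comparisons, 68 called no member. In all myogenic cells DESeq2 called 1 member (Itga6), and so did the crossed replicate block. Without the filter on low counts, 1 member (Itga6) was called in quiescent-like cells and 2 (Itga6 and Parvb) in chaperone-high cells. Same-numbered samples deviated in opposite directions (r = -0.207 over 5944 genes, across genes, which are not independent). With 2 samples per genotype, this cannot decide whether the numbers mark shared handling. The replicate block called 0 members in each of the 5 classes. Over all genes DESeq2 called 114, 25, 56, 11 and 65 in all myogenic, quiescent-like, activated-like, differentiated-like and chaperone-high cells, against 25, 10, 19, 1 and 27 by edgeR. Without the filter edgeR called 13, 294, 2, 81 and 345, with the replicate block 18, 58, 24, 6 and 8, and with the crossed pairing 226, 46, 18, 18 and 10. Leaving out each sample in turn also gave 0 to 0 members in each class. The crossed pairing and the fits on chaperone-high cells were chosen after seeing the data.

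With a 2-fold limit, 4 of 28 members were higher in chaperone-high cells (5.24% of all genes), 1 of 29 in cycling-like cells (10.6%) and 5 of 29 in differentiated-like cells (7.58%), and 0 of 28 were lower in activated-like cells (6.89%). In cycling-like cells the members' share was thus under that of all genes, whereas with the 1.5-fold limit it was above. Nexn was the 1 member lower in chaperone-high cells when α-cdKO samples were used alone, Lpp the 1 member lower in cycling-like cells with control samples alone, and Flna and Lpp the 2 lower in differentiated-like cells with doublets removed.

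Among 723 alternative values of named genotype differences, 7 changed sign, all in genes that were not called. Pdlim7 was at -0.13 with all kept cells, where mature muscle cells are counted, and with doublets removed Vcl was at 0.303 and Trip6 at 0.0217 in differentiated-like cells. Leaving out 1 sample moved Itgb1 between -0.104 and 0.0120 and Ptk2 between -0.0563 and 0.0247 in quiescent-like cells, and Trip6 between -0.170 and 0.0128 in differentiated-like cells. The cause was not tested. Pools of 2 mice, 2 per genotype, limit what these fits can call.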
